A study of Mus musculus with 24 samples.

Results

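The cytosolic ribosomal protein genes of mouse embryonic fibroblasts (MEFs) were examined in wild type (WT) cells and in cells lacking the transcription factors TFEB and TFE3 (*tfeb tfe3* DKO) after vehicle (DMSO), torin1 or MK-8722. The genes were chosen by name. A symbol had to read Rpl or Rps followed by a number and at most a short suffix, or be one of *Rplp0*, *Rplp1*, *Rplp2* and *Rpsa*, ribosomal S6 kinases and numbered pseudogenes were left out, and a mean of at least 5 CPM (the count scaled to the same total in every library) over the 24 libraries was required. Of 55487 genes in the table, 90 carried such a name and 84 passed the CPM minimum, 34 of them named for the small and 50 for the large subunit. The gene nearest above the minimum was *Rpl6l* at 5.55 CPM, and the nearest below it was *Rps12l1* at 4.96 CPM. In the GENCODE annotation 81 of the 84 are protein coding and 3, *Rps3a2*, *Rps3a3* and *Rpl6l*, are processed pseudogenes, so the reads assigned to these 3 and to their parent genes cannot be separated with certainty.

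Each of the 6 groups held 4 libraries of bulk mRNA, and within a group each library came from a culture at another passage. WT cultures were at passages 7, 8, 9 and 11 and DKO cultures at passages 8, 9, 10 and 11. The WT and DKO cells are separate MEF lines, so that genotype and line cannot be told apart. Torin1 is an ATP-competitive inhibitor of the kinase MTOR, and MK-8722 is a direct activator of the energy sensor AMPK. Libraries held 24668921 to 33332562 estimated counts, with a median of 27988364, and all 84 genes passed the filter on low counts, which left 15401 genes tested. All 9 fibroblast markers examined were expressed in WT cells. Under DMSO *Thy1* had a mean of 3.14 CPM in WT and 0 CPM in DKO cells, where the other fibroblast markers were expressed. Markers of macrophages, endothelium and epithelium summed to at most 14.9, 1.32 and 3.09 CPM in any library. *Tfeb* stood at 22.9 ± 1.74 normalized CPM in WT and 2.25 ± 0.289 in DKO cells under DMSO (SD, n = 4), and *Tfe3* stood at 120.2 ± 1.17 and 124 ± 2.11. The *Tfe3* gene count thus did not separate the lines, and whether the counted transcripts lie inside the deleted part was not tested.

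Cytosolic ribosomes are built from ribosomal RNA and a fixed set of ribosomal proteins, whose messenger RNAs are among the most abundant in dividing cells. Most of these messenger RNAs begin with a C followed by an unbroken stretch of pyrimidines, the 5′ terminal oligopyrimidine (TOP) motif, through which MTORC1 and the binding protein LARP1 control their translation and stability. Translation was not measured here, and every value below is a level of RNA. TFEB and TFE3 are themselves held in the cytosol by MTORC1 and are known for driving lysosomal and autophagy genes rather than ribosomal ones.

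The start of the transcript carries the TOP motif, and the 30 bases from 10 before to 20 after the RefSeq start site (GRCm38.p6) are shown on the gene's strand for *Rps6* and *Rpl28*, which have a run of pyrimidines exactly at the start, and for the genes with a window that responded to torin1. Capitals mark a C followed by at least 4 C or T that begins within 10 bases of the start.
*Rps6*, chr4:86857348-86857377, minus strand: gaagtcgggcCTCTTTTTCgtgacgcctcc
*Rpl28*, chr7:4792955-4792984, plus strand: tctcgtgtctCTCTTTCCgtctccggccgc
*Rpl10a*, chr17:28328461-28328490, plus strand: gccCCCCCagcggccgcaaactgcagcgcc
*Rpl12*, chr2:32961702-32961731, plus strand: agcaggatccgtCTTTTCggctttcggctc
*Rpl22l1*, chr3:28805498-28805527, plus strand: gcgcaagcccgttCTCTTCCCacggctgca
*Rps27l*, chr9:66946076-66946105, plus strand: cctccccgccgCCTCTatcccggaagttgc
*Rpl7l1*, chr17:46782637-46782666, minus strand: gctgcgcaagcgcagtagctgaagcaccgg
*Rpl36al*, chr12:69184048-69184077, minus strand: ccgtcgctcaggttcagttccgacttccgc
*Rpl27*, chr11:101442235-101442264, plus strand: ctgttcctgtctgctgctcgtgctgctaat
The genes that rose with torin1 and have a window (*Rpl10a*, *Rpl12* and *Rpl22l1*) hold such a run. That of *Rpl10a* ends before the start and so lies outside the RNA, and those of *Rpl12* and *Rpl22l1* begin after the start. *Rpl7l1*, *Rpl36al* and *Rpl27*, which fell, hold no run, and *Rps27l*, which also fell, holds one that begins after the start. None of the runs in these torin1 genes begins exactly at the RefSeq start, so none is a TOP motif at that start. A second window of *Rpl10a* and of *Rps27l* begins at another start and holds no run. *Rpl3* and *Rps20* have no entry in the sequence table. The RefSeq start matches the GENCODE gene start for *Rpl10a* (first window) and *Rps27l* (first window) and differs from it for the other genes shown, so that a run or its lack holds for the RefSeq start alone.

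RefSeq start windows were found for 61 of the 84 genes. A pyrimidine run that begins within 10 bases of the start was present in 36 of the 61 (59.0%), and in 34.4% of all 27025 genes with a window. Such a run can lie wholly before the start, as in *Rpl10a* and *Rpl6*, so these are not counts of TOP motifs. On either strand of the region from 250 bases before to 50 after the start, the word CCGGAAG, the core that ETS factors bind, was held by 41.0% of the ribosomal protein genes and 9.93% of all genes. The GC box GGGCGG was held by 63.9% and 38.2%, the YY1 core AAGATGG by 16.4% and 7.28%, and the TATA word TATAAA by 11.5% and 15.7%. CACGTG, the palindromic core of the element that TFEB and TFE3 bind, was held by 6 of the 61 (9.84%) and by 8.09% of all genes. No searched word contains another. The 36 genes with a run and the 25 without it had median log2 fold changes of 0.05 and 0.04 with torin1 in WT, and of 0.09 and 0.09 in DKO cells. These counts describe letters in a window and were not tested.

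Measured in TPM, which allows for transcript length as well as for library total, the 84 genes had a median level of 1799 TPM, and 72 of them were at 1000 TPM or more. The highest mean level over all libraries was that of *Rplp1* at 5920 TPM, an acidic protein of the stalk that recruits elongation factors, and the stalk base *Rplp0* was among the 3 highest at 4629 TPM. The 3 lowest were *Rpl6l* at 11.6 TPM, *Rpl7l1* at 188 TPM and *Rpl22l1* at 194 TPM, a retrocopy and the paralogs of *Rpl7* and *Rpl22*. The 10 highest genes made up 25.3% of the summed TPM of the 84. The order of levels was close between groups, with r = 0.98 for log2 TPM of WT against DKO cells under DMSO and r = 0.99 for WT cells under DMSO against torin1 (Pearson, over 84 genes that share libraries).

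Together the ribosomal protein genes took a larger share of all counts under torin1 and a smaller mean share under MK-8722. In WT cells their share was 6.24, 5.92, 6.17 and 6.06% in the 4 DMSO libraries, 6.50, 6.95, 6.99 and 6.91% in the 4 torin1 libraries and 5.80, 5.42, 5.89 and 5.90% in the 4 MK-8722 libraries. All torin1 libraries lay above all DMSO libraries and all MK-8722 libraries below the lowest DMSO library. In DKO cells the share was 5.39, 5.68, 5.82 and 5.84% under DMSO, 6.39, 6.18, 6.38 and 6.19% under torin1 and 5.51, 5.25, 5.69 and 5.44% under MK-8722, where torin1 again did not overlap DMSO, but MK-8722 did. As means these were 6.10 ± 0.14%, 6.84 ± 0.23% and 5.75 ± 0.23% in WT and 5.68 ± 0.21%, 6.28 ± 0.12% and 5.47 ± 0.18% in DKO cells (SD, n = 4). With SDs propagated from the groups, the ratio of torin1 to DMSO was 1.12 ± 0.05 in WT and 1.11 ± 0.05 in DKO cells, and that of MK-8722 to DMSO was 0.943 ± 0.043 and 0.963 ± 0.048. The library at passage 11 was the lowest of its group in all 6 groups. Without the passage 11 libraries the ratios were 1.13 and 1.09 for torin1 and 0.952 and 0.959 for MK-8722 in WT and DKO cells. Matched by passage, the share was higher under torin1 and lower under MK-8722 than under DMSO in 4 of 4 pairs in each genotype, with ratios in DKO cells under MK-8722 of 0.943 to 0.977. Both ways of comparing were chosen after the data were seen. Scaled by total counts alone, the median log2 fold change with torin1 in WT was 0.13 for these genes and 0.14 for all genes. By these medians the rise in WT cells was not particular to the ribosomal protein genes. In DKO cells the medians with torin1 were 0.12 for these genes and 0.06 for all genes. With MK-8722 they were -0.09 and -0.0016 in WT and -0.05 and 0.01 in DKO cells. A share of counts is relative to all other genes of a library, and fewer counts elsewhere and more on these genes cannot be told apart, nor, in bulk RNA, can fewer cells of a type and less RNA per cell.

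**Figure D1:**
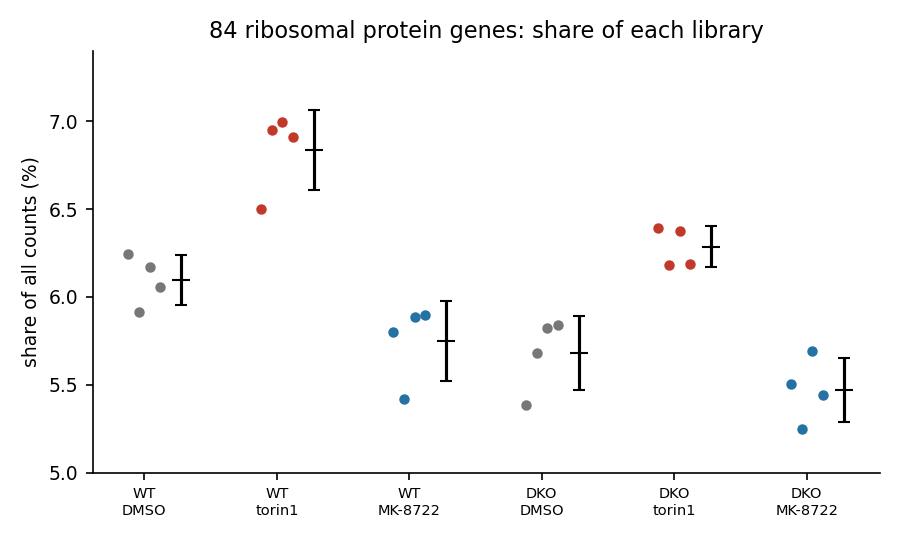
Share of all counts held by the 84 ribosomal protein genes (y axis, percent, from 5 to 7.4) in each of the 24 libraries, by group on the x axis. Points are libraries in order of replicate number, bars give the mean and SD (n = 4), and the torin1 points lie above the DMSO points of the same genotype.

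After scaling of the libraries by trimmed mean of M values (TMM), which sets the bulk of genes level, most of the 84 genes moved little under torin1, and a few moved further in either direction. A gene is called here when its edgeR quasi-likelihood adjusted p is under 0.05 and its fold change at least 1.2. In WT cells torin1 raised 5 and lowered 4 of the 84 genes, where 26.6% of all genes tested were called higher and 20.5% lower. In DKO cells it raised 4 and lowered 4, beside 23% and 20.2% of all genes. By adjusted p alone, 26 were higher and 7 lower in WT (32.5% and 28.1% of all genes), and 36 were higher and 5 lower in DKO cells (29.0% and 28.1%). The median log2 fold change of the 84 was 0.04 in WT and 0.08 in DKO cells, with medians over all genes of 0.05 and 0.02, and 71 and 69 of the 84 lay within 0.2 of 0. Scaling by total counts alone gave 13 higher and 4 lower in WT, in place of 5 and 4, with a median of 0.13 for the 84 and 0.14 for all genes.

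The genes that torin1 raised in both genotypes were *Rpl10a*, *Rpl3*, *Rpl12* and *Rps20*, which encode core proteins of the ribosome. *Rpl10a* (chr17:28328471-28331033, plus strand), a protein of the mobile stalk beside the exit site of transfer RNA, stood at 717, 692, 724 and 727 normalized CPM in the WT DMSO libraries and at 1004, 1078, 1096 and 1067 under torin1 (log2 fold change 0.57, SE 0.0332, adjusted p = 1.80e-12). In DKO cells it stood at 596, 660.1, 656 and 653 under DMSO and at 1000.2, 1001, 987 and 989 under torin1 (log2 fold change 0.63, SE 0.0333, adjusted p = 4.41e-13). In both genotypes the groups were far apart. *Rpl3* (chr15:80077791-80091868, minus strand), a large subunit protein that reaches towards the peptidyl transferase centre, stood at 1268, 1255, 1269 and 1274 normalized CPM in the WT DMSO libraries and at 1729, 1840.3, 1788 and 1837 under torin1 (log2 fold change 0.51, SE 0.0279, adjusted p = 7.67e-13). Its DKO libraries stood at 1037, 1090.1, 1120.3 and 1080.4 under DMSO and at 1382, 1416, 1407 and 1424 under torin1 (log2 fold change 0.38, SE 0.0279, adjusted p = 8.97e-11). The rise of *Rpl3* was smaller in DKO cells, and this difference passed the adjusted p though not the fold minimum (difference in log2 fold change -0.13, SE 0.0393, adjusted p = 0.0312).

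*Rpl12* (chr2:32961559-32965345, plus strand), at the base of the stalk that recruits elongation factors, stood at 1138, 1082, 1146 and 1117 normalized CPM in the WT DMSO libraries and at 1372, 1475, 1451 and 1474 under torin1 (log2 fold change 0.36, SE 0.0394, adjusted p = 3.83e-08). The DKO libraries stood at 982, 1082, 1077 and 1099 under DMSO and at 1492, 1378, 1473 and 1441 under torin1 (log2 fold change 0.45, SE 0.0394, adjusted p = 1.68e-09). No torin1 library overlapped a DMSO library of its genotype. *Rps20* (chr4:3831334-3835665, minus strand), a protein of the small subunit head, stood at 635, 602, 656 and 643 normalized CPM in the WT DMSO libraries and at 714, 765, 785 and 796 under torin1 (log2 fold change 0.27, SE 0.0381, adjusted p = 1.87e-06). In DKO cells it stood at 546, 593, 574 and 577 under DMSO and at 723, 698, 728 and 716 under torin1 (log2 fold change 0.32, SE 0.0381, adjusted p = 1.60e-07). *Rps20* lies close to the fold minimum in WT cells and was added to the named genes after its values were seen. *Rpl22l1*, the paralog of *Rpl22*, was called in WT cells, with 43.7, 42.9, 41.3 and 45.3 normalized CPM under DMSO and 54.9, 49.8, 54.0 and 52.6 under torin1 (log2 fold change 0.29, SE 0.0589, adjusted p = 0.000206). In DKO cells its values were 54.2, 61.6, 48.8 and 49.8 and 61.6, 57.9, 60.4 and 62.8 (log2 fold change 0.18, adjusted p = 0.012), where the groups overlapped, and the difference between the genotypes was -0.11 (adjusted p = 0.449). *Rps20* and *Rpl22l1* lost their calls in WT cells in each of several alternatives. Without torin1 replicate 3, without the filter on low counts, with named pseudogenes added to their parents or with a test against the fold minimum itself, 3 genes in place of 5 were called higher.

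The genes that torin1 lowered in both genotypes were *Rpl7l1*, *Rps27l*, *Rpl36al* and *Rpl27*, of which the first 3 are the less abundant members of paralog pairs. *Rpl7l1* (chr17:46773907-46782672, minus strand), a relative of *Rpl7* that acts in ribosome assembly, stood at 249, 229, 243 and 239 normalized CPM in the WT DMSO libraries and at 147, 134, 148 and 142 under torin1 (log2 fold change -0.75, SE 0.0456, adjusted p = 3.42e-12). In DKO cells it stood at 238, 261, 267 and 267 under DMSO and at 167, 161, 166 and 178 under torin1 (log2 fold change -0.62, SE 0.0455, adjusted p = 8.48e-11). It had the largest fall of the 84 genes in both genotypes. *Rps27l* (chr9:66946086-66949516, plus strand), the paralog of *Rps27* and a known target of the tumour suppressor p53, stood at 65.9, 68.1, 66.2 and 69.8 normalized CPM in the WT DMSO libraries and at 45.8, 45.3, 45.0 and 44.6 under torin1 (log2 fold change -0.58, SE 0.0338, adjusted p = 1.83e-12). Its DKO libraries stood at 88.7, 94.9, 94.4 and 90.9 under DMSO and at 61.1, 63.4, 64.0 and 64.5 under torin1 (log2 fold change -0.54, SE 0.0336, adjusted p = 5.40e-12). All torin1 libraries lay below all DMSO libraries.

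*Rpl36al* (chr12:69182731-69184083, minus strand), the paralog of *Rpl36a*, stood at 140.0, 139, 143 and 144 normalized CPM in the WT DMSO libraries and at 97.3, 100.4, 112 and 104 under torin1 (log2 fold change -0.45, SE 0.0449, adjusted p = 1.11e-08). In DKO cells it stood at 131, 142, 145 and 146 under DMSO and at 112, 109, 115 and 111 under torin1 (log2 fold change -0.33, SE 0.0449, adjusted p = 1.21e-06). The groups did not overlap. *Rpl27* (chr11:101442298-101445529, plus strand), a large subunit protein, stood at 467, 451, 462 and 453 normalized CPM in the WT DMSO libraries and at 346, 352, 362 and 357 under torin1 (log2 fold change -0.37, SE 0.0323, adjusted p = 1.17e-09). Its DKO libraries stood at 431, 459, 473 and 453 under DMSO and at 380.2, 370.1, 373 and 361 under torin1 (log2 fold change -0.29, SE 0.0323, adjusted p = 6.15e-08). *Rpl27* was added to the named genes after its values were seen. The more abundant partners of the 3 paralogs did not fall. In WT cells *Rps27* had a log2 fold change of 0.18 (adjusted p = 0.00124), *Rpl36a* of 0.13 (adjusted p = 0.0758) and *Rpl7* of 0.08 (adjusted p = 0.0323), none of them past the fold minimum. In TPM, *Rps27l* made up 9.45% of the pair with *Rps27* under DMSO and 5.85% under torin1 in WT cells, and 12.8% and 8.07% in DKO cells. *Rpl36al* made up 23.2% and 16.8% of its pair in WT and 21% and 16.1% in DKO cells, and *Rpl7l1* 14.5% and 8.99% in WT and 13.2% and 8.91% in DKO cells. *Rpl22l1* went the other way, from 13% to 15.1% of its pair in WT and from 18.7% to 20% in DKO cells. Of the other paralogs, *Rpl3l*, *Rpl39l* and *Rpl10l* were at or near 0 and under the CPM minimum.

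**Figure D2:**
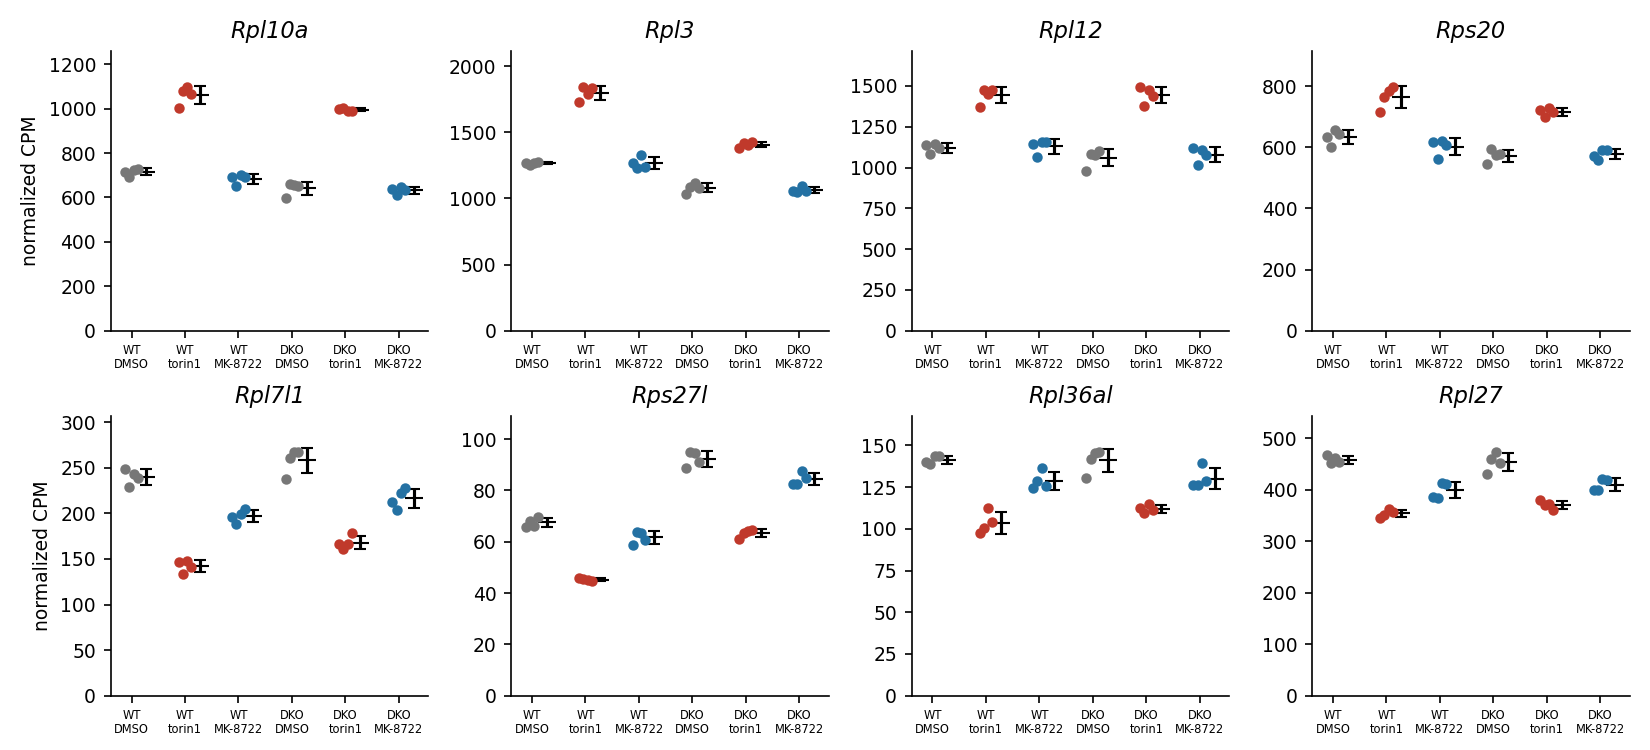
Normalized CPM (y axes, from 0) of the 8 genes called with torin1 in both genotypes, by group on the x axes. Points are the 4 libraries of a group and bars the mean and SD. The first 4 panels hold the genes that rose and the last 4 those that fell, where the MK-8722 means lie between the DMSO and torin1 means.

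Set side by side, the log2 fold changes with torin1 in WT and DKO cells, which share no library, had r = 0.95 over the 84 genes (Pearson, a description over genes that are not independent), and r = 0.71 over all genes tested. All 8 genes named above were called in both, and 25 were higher and 5 lower by adjusted p alone in both. No gene of the 84 was called for a different response to torin1 in DKO compared to WT cells, where 4.68% of all genes were called higher and 6.33% lower. At an unadjusted p under 0.05, 5 had a more positive and 1 (*Rpl3*) a more negative response in DKO cells, and DESeq2, limma voom and the newer edgeR fit also called 0. For MK-8722 the same test called 0 of the 84 beside 1.42% and 4.08% of all genes, with 1 gene at an unadjusted p under 0.05 and 0 calls by the same 3 alternatives. The torin1 response was more positive in DKO cells for 71 of the 84 genes (median difference 0.04 on the log2 scale, -0.01 over all genes), and the MK-8722 response for 76 (median difference 0.03, 0.01 over all genes). Scaling by total counts turned the median difference for torin1 to -0.02, with -0.06 over all genes. A p that misses the threshold does not show that the responses are alike.

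**Figure D3:**
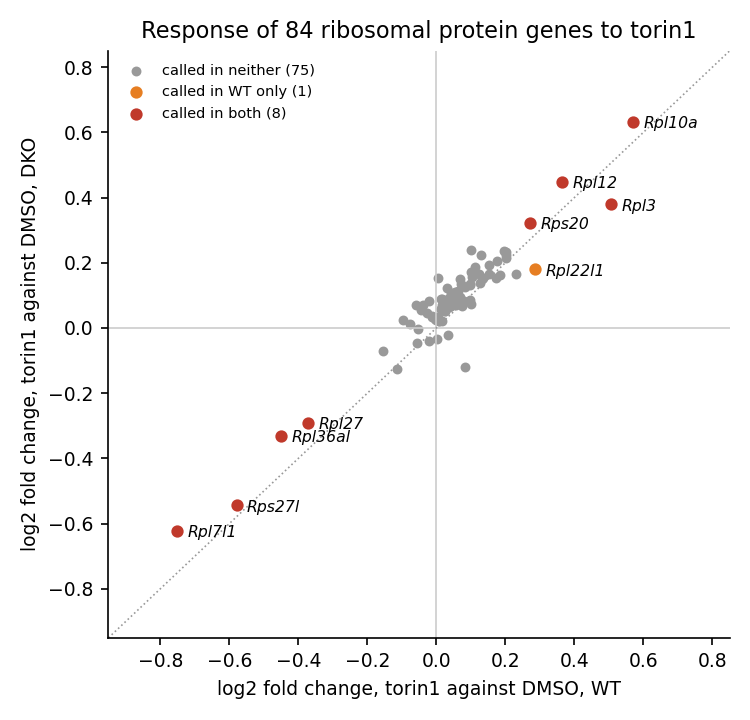
Log2 fold change of each of the 84 ribosomal protein genes with torin1 in WT cells (x axis) and in DKO cells (y axis). Points are genes, the dotted line marks equal response, red points are called in both genotypes (8), the orange point in WT only (*Rpl22l1*), and the 75 grey points lie close to the origin.

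MK-8722 lowered many ribosomal protein genes by a small amount. In WT cells 1 gene was called lower, *Rpl7l1*, beside 5.87% of all genes, and 0 higher beside 10.3%, with 0 higher also by DESeq2, limma voom and the newer edgeR fit and 0 at an unadjusted p under 0.05. By adjusted p alone 40 of the 84 were lower, beside 15.2% of all genes, and 0 higher. The median log2 fold change of the 84 was -0.10 in WT cells, with a median over all genes of -0.01, and 81 of the 84 lay below that median. *Rpl7l1* stood at 197, 188, 199 and 205 normalized CPM, all below its DMSO libraries (log2 fold change -0.28, SE 0.0454, adjusted p = 4.57e-05). *Rpl27* had a log2 fold change of -0.20 (adjusted p = 4.80e-05) and *Rpl11*, which with *Rpl5* binds the p53 regulator MDM2, of -0.18 (adjusted p = 0.00156), neither past the fold minimum. In DKO cells 0 genes were called lower beside 3.21% of all genes and 0 higher beside 5.47%, with the same counts by DESeq2, limma voom and the newer edgeR fit, and 27 lower and 0 higher at an unadjusted p under 0.05. By adjusted p alone 13 were lower in DKO cells, beside 10.3% of all genes, and all 13 were among the 40 of WT cells. The median was -0.06, with a median over all genes of 0.00. In DKO cells 82 of the 84 lay below the median over all genes.

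Set directly against MK-8722, torin1 gave higher levels of most ribosomal protein genes. In WT cells 8 were called higher beside 24.9% of all genes and 3 lower beside 20%, and in DKO cells 6 were called higher beside 21.1% and 2 lower beside 19.3%. By adjusted p alone 65 were higher in WT cells beside 31.2% of all genes, and 68 in DKO cells beside 27.8%. The median log2 difference of the 84 was 0.15 in both genotypes, with medians over all genes of 0.05 in WT and 0.00 in DKO cells. The medians lie under the fold minimum, and the counts of calls moved with single libraries. Without WT MK-8722 replicate 2 there were 4 called higher in place of 8. In DKO cells there were 17 in place of 6 without MK-8722 replicate 3, the library of lowest RNA integrity (RIN 7.9), 11 without torin1 replicate 1 or 2, and 10 without torin1 replicate 4.

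The mitochondrial ribosomal proteins, which build a separate ribosome, were mostly lower under torin1. Of 78 genes tested, 41 were called lower and 4 higher in WT cells, with a median log2 fold change of -0.28 (20.5% and 26.6% of all genes, median 0.05), and 38 lower and 3 higher in DKO cells, with a median of -0.25 (20.2% and 23% of all genes, median 0.02). The largest of these falls was *Mrpl20* (log2 fold change -1.10 in WT and -0.97 in DKO cells). With MK-8722 their medians were -0.10 and -0.11, beside -0.10 and -0.06 in the cytosolic set. No test compared the sets.

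**Figure D4:**
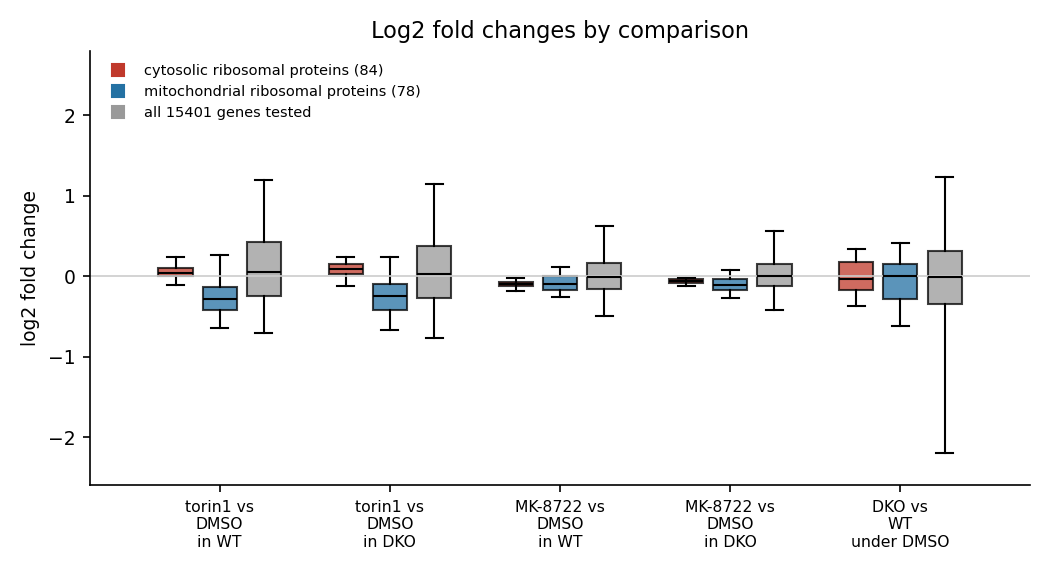
Log2 fold changes (y axis) in 5 comparisons (x axis) for the 84 cytosolic and 78 mitochondrial ribosomal protein genes and all 15401 genes tested. Boxes give the quartiles and median, whiskers the 5th and 95th percentiles. The cytosolic boxes are narrow and near 0 in the treatment comparisons, and the mitochondrial boxes lie below 0 under torin1.

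Other genes whose messenger RNAs or transcripts carry TOP motifs were followed as listed sets, to be read against 26.6% of all genes called higher and 20.5% lower with torin1 in WT, and 23% and 20.2% in DKO cells. Of 24 translation factors, 5 were called higher and 1 lower in WT and 7 higher and 1 lower in DKO cells, led by the helicase cofactor *Eif4b* (log2 fold change 0.71 and 0.65), the helicase *Eif4a2* (0.55 and 0.66) and *Eif3a* (0.43 and 0.50). Of 15 host genes of small nucleolar RNAs tested, 7 were higher and 1 lower in WT and 10 higher and 2 lower in DKO cells, with medians of 0.32 and 0.50. *Zfas1* rose from 32.3 ± 1.19 to 122 ± 5.11 normalized CPM in WT (SD, n = 4, log2 fold change 1.92) and by 2.17 in DKO cells, and *Snhg1* by 0.93 and 1.26 on the log2 scale. Both hosts rose more than any of the 84 ribosomal protein genes, whose largest rise was 0.57 in WT and 0.63 in DKO cells.

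Among 19 regulators of TOP translation and of S6 phosphorylation, 13 were called lower and 3 higher with torin1 in WT, and 13 lower and 2 higher in DKO cells, beside 20.5% of all genes lower and 26.6% higher in WT and 20.2% and 23% in DKO cells. The translational repressor *Eif4ebp1* fell (log2 fold change -1.28 in WT and -0.79 in DKO cells), and *Pdcd4*, an inhibitor of the eIF4A helicase that S6 kinase marks for degradation, rose (0.93 and 1.45). Of 9 chaperones and importers of ribosomal proteins, 4 were lower and 2 higher in each genotype, beside the same shares of all genes, with *Grwd1*, the chaperone of the protein that *Rpl3* encodes, falling by 0.83 in WT and 0.60 in DKO cells on the log2 scale. *Rps6* itself, the substrate that gives S6 kinase its name, stood at 1213, 1165, 1211 and 1185 normalized CPM under DMSO and 1147, 1217, 1209 and 1225 under torin1 in WT cells, which overlapped (log2 fold change 0.01, adjusted p = 0.865).

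Other genes with a known role were near 0 with torin1. In WT cells the stalk genes *Rplp0*, *Rplp1* and *Rplp2* had log2 fold changes of 0.07, -0.06 and 0.04. *Rpl5* and *Rpl11*, which bind 5S ribosomal RNA, had 0.10 and -0.0035, *Rps19*, a gene mutated in Diamond-Blackfan anaemia, had -0.02, and *Rps27a*, made as a fusion with ubiquitin, had 0.0058. None of these passed the test. *Rpl10*, which joins the large subunit last, had 0.15 (adjusted p = 0.000166) and *Rpsa*, of the small subunit, 0.10 (adjusted p = 0.0408), both under the fold minimum. Named pseudogenes hold 39.6% of the summed CPM of *Rpsa* and its copies, so its value is uncertain.

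Transcript shares within genes changed with torin1. Each transcript's share of its gene was tested on estimated transcript counts (edgeR diffSpliceDGE). In WT cells 13 of 480 transcripts of ribosomal protein genes were called, 7 up and 6 down, from 7 of 78 genes, beside 0.428% of all 53503 transcripts, and in DKO cells 14 were called, 4 up and 10 down, from 8 genes, beside 0.551%. With MK-8722 edgeR called 0 in WT, beside 0.0299%, and 0 in DKO cells, beside 0.0243%, where 11 and 8 of the 480 had an unadjusted p under 0.05. The retained-intron forms of *Rpl10a*, the gene that rose most, took 21.9, 17.3, 20.6 and 19.1% of its counts in the WT DMSO libraries and 12.1, 12.5, 13.5 and 11.5% under torin1, and 19 ± 1.42% and 11.5 ± 0.820% in DKO cells (SD, n = 4). Of its 7 such forms, 4 were called lower in WT and 5 in DKO cells. Its protein coding forms took 52.4% and 58.9% in WT cells.

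*Rpl27-202*, a protein coding form, took 30.0, 29.3, 29.0 and 30.2% of *Rpl27* counts under DMSO and 19.3, 19.4, 18 and 16.2% under torin1 in WT cells (edgeR adjusted p = 1.0e-05), and 29.9 ± 0.819% and 17.6 ± 0.592% in DKO cells. The groups did not overlap, and the MK-8722 libraries lay between them at 24.3 ± 1.71% in WT, which was not called. *Rps19-205*, a form annotated for nonsense-mediated decay, took 21.8, 23.9, 21.9 and 23.2% of *Rps19* counts under DMSO and 29.1, 32.1, 33.9 and 33.5% under torin1 in WT cells (edgeR adjusted p = 0.011), and 24.7 ± 1.37% and 36.3 ± 2.49% in DKO cells, while the level of the *Rps19* gene was not called. *Rpl22-204* and *Rpl22-208*, both protein coding, rose from 7.60% to 13% and from 7.57% to 12.8% in WT, and from 4.24% to 8.02% and from 4.62% to 7.46% in DKO cells. Both were also the 2 transcripts called between the genotypes under DMSO, lower in DKO cells, beside 0.202% of all transcripts. Transcript shares are estimates from short reads and are less certain than gene counts. The percentages over all transcripts were not matched for level, and the ribosomal protein genes are abundant (median 1799 TPM). Leaving out single libraries gave 8 to 14 calls in WT and 9 to 17 in DKO cells, the fewest (8) without WT DMSO replicate 3 or torin1 replicate 1 or 2, and 9 without DKO DMSO replicate 1 or torin1 replicate 3.

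Between the genotypes under DMSO ribosomal protein genes differed in both directions. Compared to WT cells, 11 were called higher and 12 lower in DKO cells, beside 23.5% and 24.6% of all genes, and by adjusted p alone 28 were higher and 33 lower, beside 31.2% and 31.9%. The median log2 difference was -0.04. Scaling by total counts alone gave 6 higher and 20 lower. *Rpl10* stood at 739, 726, 718 and 714 normalized CPM in WT and 1038, 1054, 1107 and 1075 in DKO cells (log2 fold change 0.56, SE 0.0308, adjusted p = 3.65e-13). *Rps27l* was higher by 0.45 (SE 0.0335) and *Rpl39*, near the exit tunnel, by 0.40 (SE 0.0746) on the log2 scale. *Rpl38*, known for its role in the translation of homeobox genes, stood at 254, 263, 248 and 248 in WT and 165, 173, 178 and 183 in DKO cells (log2 fold change -0.54, SE 0.0450, adjusted p = 5.26e-10). *Rpl8* had a log2 difference of -0.48 (SE 0.0291), *Rps26* of -0.46 (SE 0.0324) and *Rps6* of -0.40 (SE 0.0314), the last named for its role. None of these groups overlapped.

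The differences between the lines largely went with the chromosome a gene lies on. All 84 genes could be placed, on 19 chromosomes. The 4 genes on X had a median log2 difference of 0.39, and the 498 other genes tested on X one of 0.38. On chromosome 9 the medians were 0.23 for 7 ribosomal protein genes and 0.29 for the others, on chromosome 7 they were 0.15 for 14 and 0.18, on chromosome 1 they were 0.23 for 3 and 0.31, and on chromosome 15 they were -0.33 for 4 and -0.39. The medians had opposite signs on chromosomes 16 (-0.02 for 2 and 0.16), 2 (-0.05 for 4 and 0.03) and 12 (-0.09 for 3 and 0.0027). Over the 84 genes, the difference of a gene and the median of the other genes on its chromosome had r = 0.70 (Pearson, a description chosen after the values were seen, of genes that share libraries), and of the 23 called genes 19 had the sign of their chromosome. The same measure was 0.07 for torin1 in WT and -0.03 in DKO cells. With the chromosome's median taken away, the SD over the 84 genes was 0.170 in place of 0.237, and 6 of the 23 called genes remained past the fold minimum. Farthest from their chromosome were *Rps26* and *Rpl41*, with -0.61 and -0.55, and *Rpl22l1*, with 0.51. Genotype, line and differences between the lines that span a chromosome cannot be told apart.

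**Figure D5:**
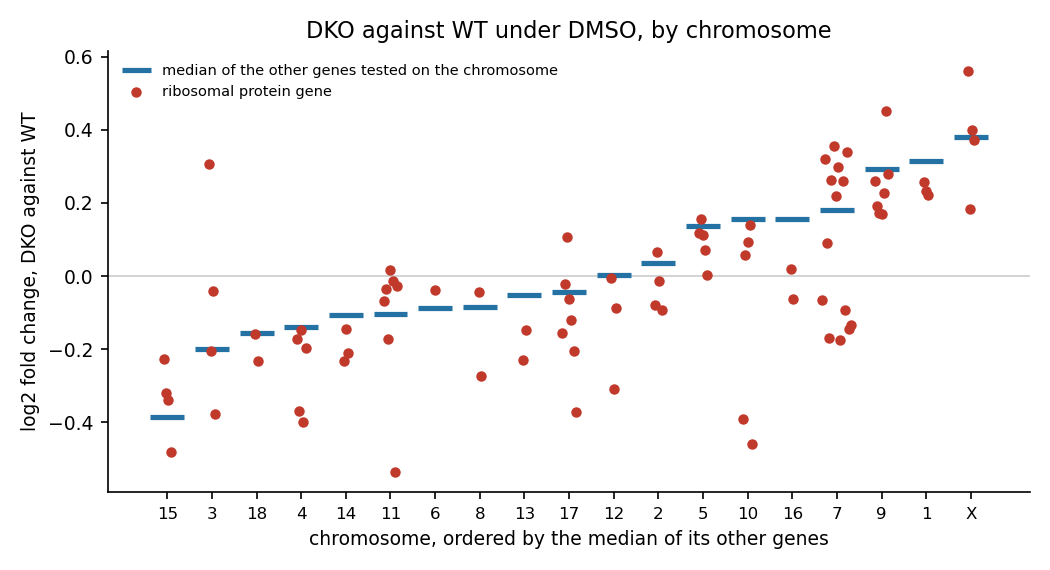
Log2 fold change of DKO against WT cells under DMSO (y axis) for each of the 84 ribosomal protein genes, by chromosome (x axis, ordered by the median of its other genes). Red points are ribosomal protein genes and blue lines the median of the other genes tested on that chromosome, and from left to right most points lie lower and then higher with the lines, from all below 0 on chromosome 15 to all above 0 on X.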

How the data were processed

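RNA was sequenced from 24 libraries of MEFs. Per the labels and the methods of the study, the authors ran nf-core/rnaseq with STAR and Salmon on GRCm38 with UMIs taken into account. They deposited estimated counts per gene merged over all libraries, and estimated counts and TPM per transcript for each library. TPM values were deposited as scaled by Salmon for transcript length, and were summed here over the transcripts of each gene. The ribosomal protein genes, the other gene lists and the tests were chosen with earlier results of these data known.

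Estimated counts were rounded and fitted with edgeR 4.0.16 in R 4.3.3 (filterByExpr with a minimum count of 10, TMM factors, 1 mean per group over all 24 libraries, quasi-likelihood test, Benjamini-Hochberg adjustment over 15401 genes). A call needed a 1.2-fold change or more together with an adjusted p under 0.05. Total counts of 24668921 to 33332562 per library limit precision little for most of these genes, which are abundant. *Rpl6l* had only 5.55 CPM and an SE of 0.119 for torin1 against MK-8722 in WT cells. The biological coefficient of variation common to all genes tested was 10.7%. Transcript usage was tested with diffSpliceDGE on 53503 transcripts of genes with several. The spread between libraries of a group is that between cultures at different passages.

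Genes were named in the text by rule: the 3 largest called rises and falls in each comparison, genes of known role, paralog pairs, the 3 highest and 3 lowest in TPM, up to 3 genes with the largest called change from each other list, and *Tfeb* and *Tfe3*. *Rps20*, *Rpl27*, *Rpl28*, *Rpl41* and the chromosome pattern were added after the values were seen. Some genes that the rule names are not reported here. Gene positions and transcript types came from GENCODE vM21 (GRCm38), which held all 84 genes, and start windows from RefSeq (GRCm38.p6). Alternatives were other filters, scalings (DESeq2 1.42.0 size factors, total counts), tests (DESeq2, limma 3.58.1 voom, glmTreat), counting of pseudogenes, blocks for replicate number and for passage, and leaving out each library. On data simulated for torin1 against DMSO in WT over 14938 genes, the gene test recovered 70 of 99 genes changed by 0.5 and 87 of 99 changed by 1 on the log2 scale, with 5 false calls among 14740. Over 50629 simulated transcripts, the usage test recovered 51 of 100 changed by 1 and 79 of 100 changed by 2 on the log2 scale. It made 35 false calls among 49328 transcripts of unchanged genes.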

Additional observations from a re-analysis of the deposited data

Results flagged for a closer look

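*Rpl10a* in DKO cells under DMSO stood at 596 normalized CPM in replicate 1 and between 653 and 660 in the other libraries (gap over range 0.889). *Rpl12* in WT cells under MK-8722 stood at 1062 in replicate 2 and between 1146 and 1157 in the others (0.886). *Rpl3* in DKO cells under MK-8722 stood at 1097 in replicate 3, the library with a RIN of 7.9, and between 1052 and 1056 in the others (0.921). These 3 were set apart because a single library lay far from its group beyond Dixon's 95% critical value, in checks of 16 genes and the summed share in each of the 6 groups. The *Rpl10a* and *Rpl12* libraries are both at passage 11. Chance sets apart about 1 in 20. The 4th result is the response of *Rpl3* to torin1, which differed between DKO and WT cells (difference in log2 fold change -0.13, SE 0.039, edgeR adjusted p = 0.031), a difference under the 1.2-fold minimum.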

How the results depend on the processing

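The 30 largest called changes (up to 3 in each direction per comparison) kept their direction in all 1200 alternative values. In 7 of these, for *Rpl36al*, *Rpl6l* and *Rpl7l1*, the call was lost, once by falling under the fold minimum alone. Among other named genes, the test against the fold minimum also ended the calls of *Rps20* and *Rpl22l1* with torin1 in WT and of *Rps20* and *Rpl27* in DKO cells. Counts of called genes depended on the fold minimum, since most changes were small, and the cause of the other shifts was not tested. By adjusted p alone, torin1 gave 26 higher and 7 lower in WT and 36 higher in DKO cells, MK-8722 gave 40 lower in WT and 13 in DKO cells, DKO against WT gave 28 higher and 33 lower, the torin1 response differed for 1 gene, and torin1 against MK-8722 gave 65 higher in WT and 68 higher and 4 lower in DKO cells. A test against the fold minimum itself (glmTreat) gave 3 higher with torin1 in WT, 2 lower in DKO cells, 0 lower with MK-8722 in WT, 7 higher in DKO against WT, and 4 and 3 higher for torin1 against MK-8722 in WT and DKO cells. Scaling by total counts gave 13 and 7 higher with torin1 in WT and DKO cells, 6 higher and 20 lower in DKO against WT, and 29 and 17 higher for torin1 against MK-8722. No filter gave 3 higher with torin1 in WT and 1 lower with MK-8722 in DKO cells. Pseudogene counts added to their parents gave 3 higher with torin1 in WT. At least 10 counts in every library gave 16 and 12 higher for torin1 against MK-8722 and 20 transcripts for torin1 in WT. Only the groups compared gave 10 higher for torin1 against MK-8722 in DKO cells, and leaving out WT passage 11 and DKO passage 8 gave 1 lower with MK-8722 in DKO cells. With passage as a block there were 2 lower with MK-8722 in WT, and 23 and 1 transcripts for torin1 and MK-8722 in WT. A minimum change of 1 percentage point gave 8 transcripts for torin1 in DKO cells.

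Leaving out each library gave 3 to 5 higher and 4 lower with torin1 in WT, 4 and 4 in DKO cells, 1 to 2 lower with MK-8722 in WT (2 without WT MK-8722 replicate 4 or DKO torin1 replicate 1) and 0 to 1 in DKO cells (1 without DKO DMSO replicate 1 or MK-8722 replicate 3 or 4). It gave 8 to 15 higher and 11 to 13 lower in DKO against WT, 4 to 11 higher and 3 lower for torin1 against MK-8722 in WT, 4 to 17 and 2 in DKO cells, and 8 to 14, 9 to 17 and 2 transcripts for torin1 in WT, torin1 in DKO and DKO against WT. All others gave 0.

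With a replicate block the counts were 5 higher and 4 lower with torin1 in WT, 4 and 4 in DKO cells, 1 lower with MK-8722 in WT, 11 and 12 in DKO against WT, 8 and 3 for torin1 against MK-8722 in WT and 6 and 2 in DKO cells, and 17, 18 and 2 transcripts. The numbers did not pair the samples, since same-numbered libraries had correlations of -0.41 to 0.66 with a median of 0.044, over 0.1 in 13 of 60 pairs. Libraries of the same passage and genotype had a median of 0.157, over 0.1 in 17 of 24 pairs, and those of different passages one of -0.039.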
